A study of Mus musculus with 7 samples.

Results

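The genes described here are the mouse Zfp genes numbered below 600, that is, every protein-coding gene whose symbol is Zfp followed by such a whole number and nothing else. RefSeq for GRCm38.p6 held 196 of them among 21887 protein-coding genes on chromosomes 1 to 19, X and Y. LEF1 and TCF1 (gene Tcf7) had been mapped in naive CD8 T cells of wild-type mouse spleen that carried the transgenic P14 T cell receptor, sorted as CD8+, Ly5.1+, CD44- and CD62L+ cells. The assay was CUT&RUN, where a nuclease tethered to an antibody releases the DNA around a bound protein. There were 3 libraries with a LEF1 antibody and 3 with a TCF1 antibody, all from the same kind of cell, with no age or sex given; whether the libraries came from separate animals is not stated, so each p-value speaks only of how far these libraries spread, and that spread may be technical.

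Most Zfp genes encode proteins with zinc fingers of the C2H2 type, which read DNA sequence. Many also carry a KRAB domain, which recruits the corepressor TRIM28 and the histone methyltransferase SETDB1 to silence transposons, and such genes arose by repeated duplication and lie in clusters. Others in the number series are unrelated in function, such as Zfp36, the gene of the mRNA decay factor tristetraprolin. LEF1 and TCF1 are HMG-box proteins that maintain T cell identity and act in Wnt signalling.

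The measurement was the presence of a peak interval, which the authors called in each library alone. A gene end was marked when an interval overlapped the 1 kb on either side of it by at least 1 bp, and the wider window was the gene body with 10 kb on each side. The 3 LEF1 lists held 27666, 37646 and 23704 intervals, the 3 TCF1 lists 25623, 22901 and 11423 (each in replicate order), and the list of TCF1 replicate 3 was the shortest. Read totals are not in the lists, so the depth behind each interval is unknown, and a gene without an interval is one without a detected peak. The cell type was checked on marker genes: all 5 T cell genes (Cd8a, Cd8b1, Cd3e, Cd3d and Cd3g) had a marked end in all 6 libraries, against 0 of 4 B cell genes and 0 of 4 myeloid genes. Cd79a and Itgam, from those last 2 lists, were marked in 5 libraries.

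The Zfp genes had a marked end more often than protein-coding genes at large, in every library. An end was marked at 91, 115 and 79 of the 196 genes in LEF1 replicates 1 to 3 and at 107, 93 and 47 in TCF1 replicates 1 to 3. As shares these were 46.4%, 58.7% and 40.3% for LEF1 and 54.6%, 47.4% and 24.0% for TCF1. Over all protein-coding genes the shares were 32.2%, 38.9%, 29.5%, 35.8%, 32.8% and 19.0% in the same order, so the Zfp genes stood 5.03 to 19.7 percentage points above them. The smallest difference was that of TCF1 replicate 3. The excess was not particular to these genes. The 171 Zfp genes numbered 600 and above also lay above all protein-coding genes in every library, at 40.4%, 50.3%, 37.4%, 45.6%, 40.4% and 19.9%. Many protein-coding genes are silent in T cells, and the background was not matched on expression.

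**Figure D1:**
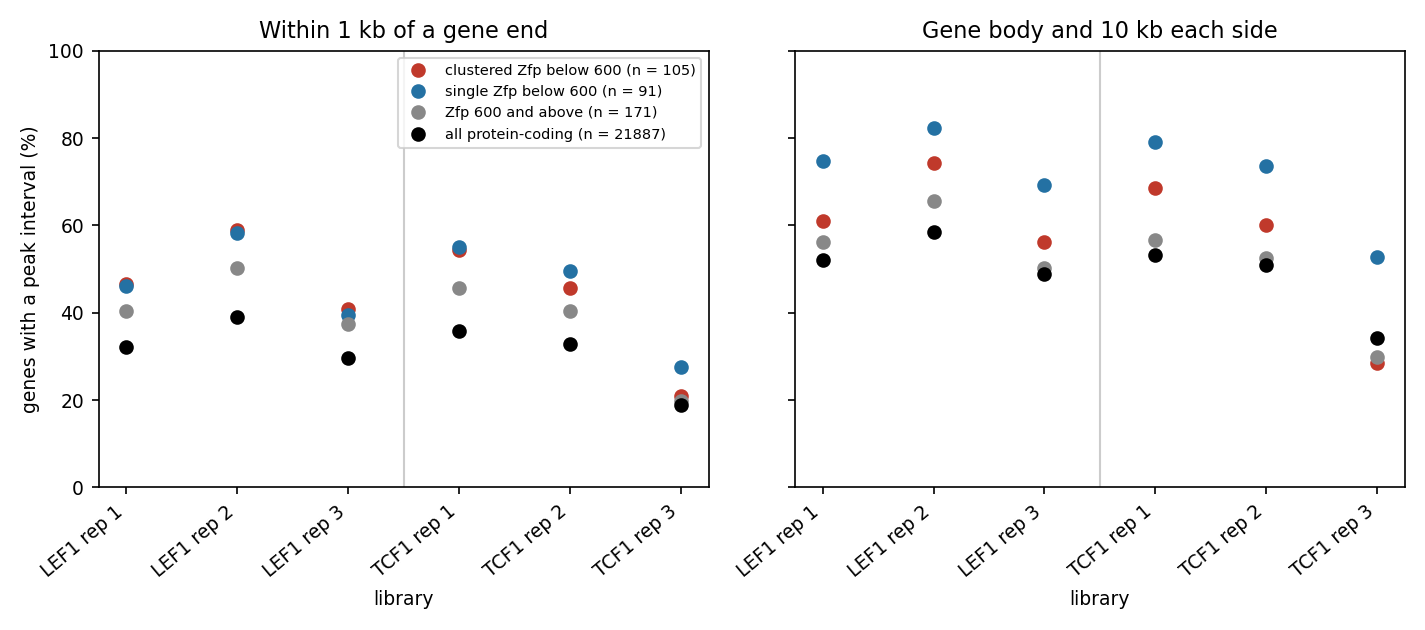
Percentage of genes (y axis) with a peak interval within 1 kb of a gene end (left) and in the gene body with 10 kb on each side (right), 1 point per library and gene group. In the left panel the clustered and single Zfp points lie close together, farthest apart in TCF1 replicate 3, and in the right panel the single genes lie above the clustered ones in all 6 libraries.

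With the lists as deposited, the 2 factors did not differ at these genes beyond the spread between libraries. An end was marked at 48.5% ± 9.35 of the genes on average in the LEF1 libraries and at 42.0% ± 16.0 in the TCF1 libraries (SD, n = 3 each), a difference of 6.46 percentage points (two-sided exact permutation p = 0.7; the smallest that 3 against 3 libraries can give is 0.1). By library the wider window held an interval at 67.3%, 78.1% and 62.2% of the genes for LEF1 and 73.5%, 66.3% and 39.8% for TCF1, where the shares of all protein-coding genes were 52.0%, 58.4%, 48.8%, 53.3%, 50.9% and 34.2%. The 3 LEF1 libraries averaged 69.2% ± 8.07 and the 3 TCF1 libraries 59.9% ± 17.7 (SD; exact permutation test, two-sided, p = 0.5). The mean number of intervals per gene there was 1.48 ± 0.353 and 1.10 ± 0.438 (SD, n = 3 each; exact permutation test, two-sided, p = 0.5). Adjusted over the 6 tests made on these genes, the p-values were 0.7, 0.6 and 0.6. The direction of the 2 shares turned without TCF1 replicate 3, the shortest list. LEF1 minus TCF1 was then -2.55 points at gene ends and -0.68 in the wider window, and with lists of equal size it was -1.19 and -2.55. The difference in intervals per gene did not turn without that library (0.135) and was -0.0136 with equal lists. In the wider window with equal lists the LEF1 shares were 35.2%, 37.2% and 37.2% and the TCF1 shares 39.8%, 37.8% and 39.8%, so that each TCF1 library lay above each LEF1 library (exact permutation test, two-sided, p = 0.1, the smallest possible).

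An end marked in 2 or 3 libraries of a factor is called held. LEF1 held 93 of the 196 genes (47.4%), where it held 33.0% of all protein-coding genes. TCF1 held 92 (46.9%), where it held 32.1% of all. Both held the same 82 genes. The 11 genes held by LEF1 and not TCF1 and the 10 held by TCF1 and not LEF1 had mostly weak intervals. Their fold enrichments had medians of 7.09 and 6.96 and ran from 5.48 to 13.6 and from 4.02 to 11.2. The highest value lay above the Zfp median of its library (12.4, LEF1 replicate 2). Zfp599, the one gene of the 11 with all 3 LEF1 libraries, also had an interval in TCF1 replicate 1. With both ends of a gene pooled, no Zfp gene was marked by all 3 libraries of a factor while the other factor left it unmarked. Of protein-coding genes, 0.370% had the LEF1 pattern and 0.0457% the TCF1 pattern. At the LEF1 rate fewer than 1 of 196 genes would show it. Taken alone, the 3′ end of Zfp281 had the LEF1 pattern, but its 5′ end was marked by both factors. In the wider window 1 gene, Zfp595, had intervals in the 3 LEF1 libraries (2, 2 and 1) and no TCF1 library, where 0.562% of protein-coding genes did so, and none had the reverse, shown by 0.0228%. Zfp595 was picked out for that pattern, and none of its intervals lay at an end.

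Zfp genes, like protein-coding genes at large, were mostly marked in nearly all libraries or in none. In all 6 libraries 47 genes had a marked end (24.0%, against 18.6% of protein-coding genes), and in no library 73 (37.2%, against 59.2%). A start inside a gene, such as that of Zfp595, did not count as an end, so some of the 73 had an interval at such a start. A further 29 genes were marked in 5 libraries, and in each of the 29 the missing one was TCF1 replicate 3. The remaining 47 genes were marked in 1 to 4 libraries. In the wider window 78 genes had an interval in all 6 libraries (39.8%, against 33.9%) and 41 had none (20.9%, against 40.6%).

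**Figure D2:**
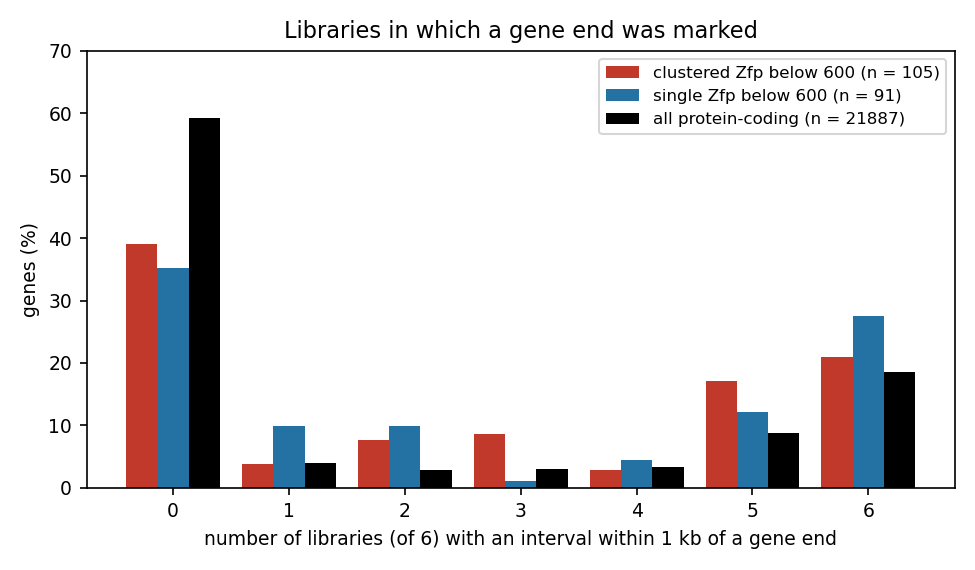
Percentage of genes (y axis) by the number of libraries, 0 to 6, in which an end of the gene was marked (x axis), for clustered and single Zfp genes and for all protein-coding genes. Both Zfp groups peak at 0 and again at 5 and 6 libraries.

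The marked end was mostly the start of the gene. Strand was known for the 157 Zfp genes found in the RefSeq promoter table (GRCm38.p6). Of these, 52.2% ± 7.51 had an interval within 1 kb of the 5′ end in LEF1 libraries and 45.4% ± 15.8 in TCF1 libraries (SD, n = 3 each). At the 3′ end the shares were 4.46% ± 1.10 and 2.34% ± 1.60. The summit, the highest point of an interval, lay within 250 bp of the 5′ end at 70.5% to 79.1% of the genes marked there. Its median position was 21 to 49.5 bp upstream in the 6 libraries.

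**Figure D3:**
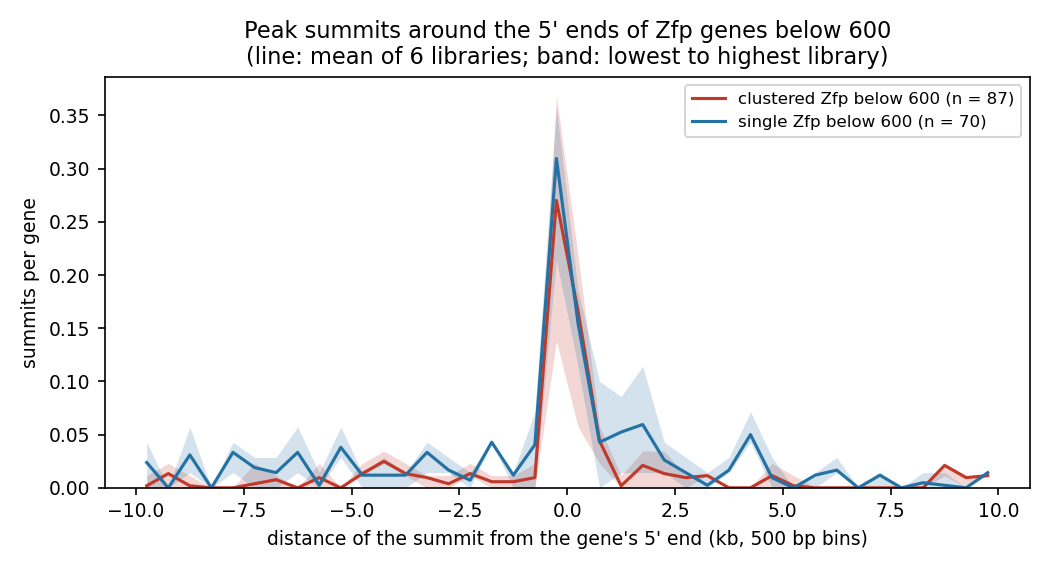
Summits per gene in 500 bp bins (y axis) against the distance from the gene's 5′ end in kb (x axis), for 87 clustered and 70 single Zfp genes; the line is the mean over 6 libraries and the band runs from the lowest to the highest library. Both groups share a narrow peak at the 5′ end, and the line of single genes also shows small rises away from it.

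The strongest gene-end intervals, by mean rank of the authors' fold enrichment within a list, were at Zfp524, Zfp12, Zfp143, Zfp13, Zfp78, Zfp142, Zfp317, Zfp386, Zfp1 and Zfp36. Their mean rank percentiles ran from 3.17 to 8.92, where low values are strong. At Zfp1 and Zfp36 the strongest interval lay only partly inside the 1 kb window. Its median summit lay 1108 and 1166 bp from the gene end. Zfp143 encodes an activator that binds the promoters of many housekeeping and small nuclear RNA genes. Its 5′ end (chromosome 7, interval 110061119 to 110062097) had fold enrichments of 49.0, 67.9 and 42.4 in LEF1 replicates 1 to 3 and 59.9, 51.7 and 26.7 in TCF1 replicates 1 to 3. The value of TCF1 replicate 3 lay below the other 5, as it did at each of these 10 genes.

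Zfp12 (chromosome 5, interval 143234623 to 143235677) had fold enrichments of 38.4, 60.0 and 62.2 for LEF1 and 63.1, 53.8 and 28.3 for TCF1. The ranges of the 2 factors overlapped. The part of each promoter window that lies before the gene's own 5′ end is printed here for Zfp143 and Zfp12, the pair among these genes with the TCF/LEF core in the window and no end of a non-Zfp gene within 1 kb, and for Zfp317 and Zfp1, whose windows lack the core. At Zfp317 the strongest interval (chromosome 9, 19621827 to 19622465) overlies the printed stretch. At Zfp1 the interval over the printed stretch (chromosome 8, 111643118 to 111643824) is a weaker one, with fold enrichments of 10.2, 21.0 and 9.57 for LEF1 and 11.1, 10.01 and 6.07 for TCF1, and the strongest has its summit 1108 bp inside the gene. Zfp148, which encodes a factor of GC-rich DNA, was marked in 5 libraries and holds the core at 2 places. Zfp42, which encodes the pluripotency marker REX1, was marked in none. Capitals mark the TCF/LEF core CTTTGA or its reverse complement TCAAAG, and in Zfp1 the word TTGTAGT, the reverse complement of a word from the ZNF143 motif (ACTACAA). Each is printed 5′ to 3′ in the direction of the gene, from the RefSeq table of GRCm38.p6.
Zfp143, chr7:110061452-110061688, plus strand: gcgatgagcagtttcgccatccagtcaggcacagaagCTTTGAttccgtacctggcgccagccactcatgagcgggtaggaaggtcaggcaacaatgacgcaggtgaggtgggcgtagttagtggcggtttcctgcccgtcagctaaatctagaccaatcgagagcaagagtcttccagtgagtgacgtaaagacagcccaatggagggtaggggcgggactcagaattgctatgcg
Zfp12, chr5:143234913-143235137, plus strand: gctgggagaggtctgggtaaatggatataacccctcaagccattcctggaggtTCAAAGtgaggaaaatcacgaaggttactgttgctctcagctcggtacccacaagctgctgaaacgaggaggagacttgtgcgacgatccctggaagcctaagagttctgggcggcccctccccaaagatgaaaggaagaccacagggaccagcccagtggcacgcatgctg
Zfp317, chr9:19621841-19622037, plus strand: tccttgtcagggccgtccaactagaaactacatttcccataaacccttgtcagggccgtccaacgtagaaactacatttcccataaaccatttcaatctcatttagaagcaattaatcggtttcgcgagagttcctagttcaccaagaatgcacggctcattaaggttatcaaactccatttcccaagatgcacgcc
Zfp1, chr8:111643193-111643442, plus strand: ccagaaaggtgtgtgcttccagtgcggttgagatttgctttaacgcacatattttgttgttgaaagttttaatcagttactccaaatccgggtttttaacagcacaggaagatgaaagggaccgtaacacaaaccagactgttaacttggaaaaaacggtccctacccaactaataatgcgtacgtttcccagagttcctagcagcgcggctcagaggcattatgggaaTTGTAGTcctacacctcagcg
Zfp148, chr16:33380525-33380774, plus strand: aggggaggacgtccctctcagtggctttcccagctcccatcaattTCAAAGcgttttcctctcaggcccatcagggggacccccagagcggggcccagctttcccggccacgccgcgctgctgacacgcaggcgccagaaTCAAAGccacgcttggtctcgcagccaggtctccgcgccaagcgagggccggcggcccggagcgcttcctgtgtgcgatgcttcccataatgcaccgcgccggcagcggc
Zfp42, chr8:43307010-43307259, minus strand: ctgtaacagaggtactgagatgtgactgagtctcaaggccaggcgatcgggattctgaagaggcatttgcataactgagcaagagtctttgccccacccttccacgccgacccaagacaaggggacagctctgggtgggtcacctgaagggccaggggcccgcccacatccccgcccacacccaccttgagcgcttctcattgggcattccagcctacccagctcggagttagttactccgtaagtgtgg

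The core begins 200 bases before the gene start in Zfp143 and 172 before it in Zfp12. In Zfp148 it begins at 205 and at 110 bases before the start. Over the 300-base windows (250 bases before to 50 after a start), searched on both strands, the core was found at 19 of 157 Zfp genes (12.1%) and at 14.9% of the 17492 protein-coding genes with a window. Among Zfp genes whose window was touched by an interval it was found at 6 of 39 for all 6 libraries and 9 of 57 for 1 to 5 libraries, and among those with none at 4 of 61. Over all protein-coding windows the order was the other way, with the core at 13.9% of those touched in all 6 libraries and 16.1% of those touched in none. A match of letters in such a window is not a site.

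**Figure D4:**
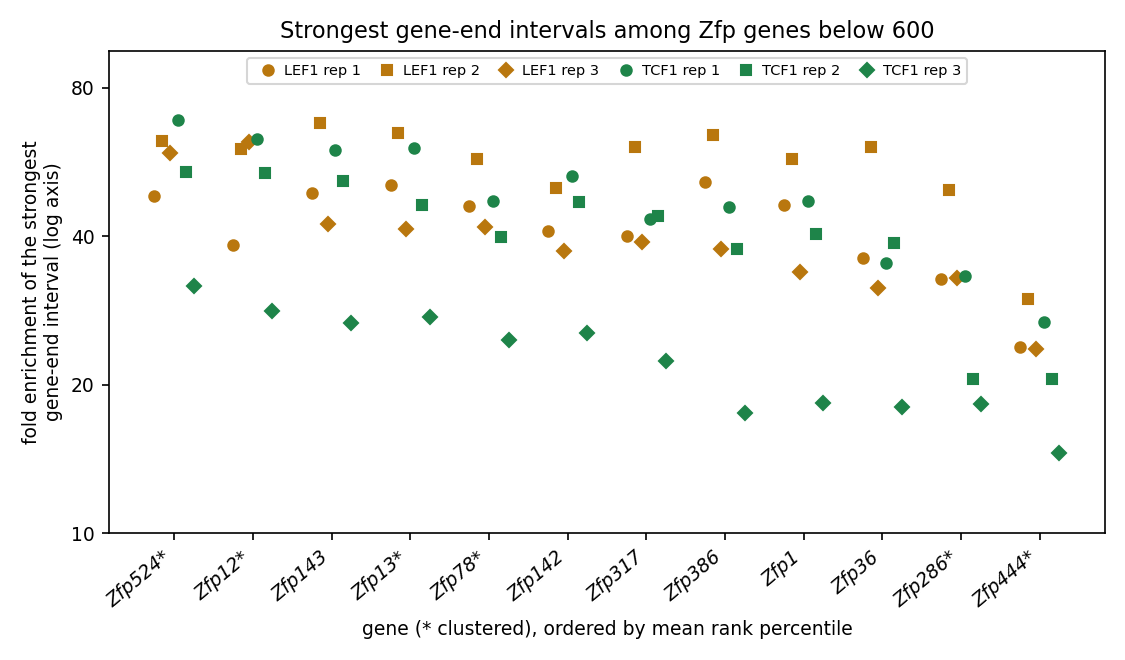
Fold enrichment of the strongest gene-end interval (y axis, log scale, the authors' value) in each of the 6 libraries for the 10 best-ranked Zfp genes and 2 further clustered ones (asterisk: clustered). LEF1 and TCF1 points interleave at each gene, and TCF1 replicate 3 is the lowest point at all 12. At Zfp1 and Zfp36 the median summit of the interval shown lies more than 1 kb from the gene end.

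Some of these ends are shared with a neighbour, so that one interval counts for both genes. Zfp142 (chromosome 1, 74587654 to 74588401; fold enrichments 41.0, 49.99 and 37.3 for LEF1 and 52.9, 46.8 and 25.4 for TCF1) has an end 156 bp from an end of Bcs1l, the gene of a mitochondrial assembly chaperone. An end of Zfp524 lies 488 bp from Fiz1, and one of Zfp91, which encodes a ubiquitin ligase, 236 bp from Lpxn. Of the 196 Zfp genes, 28 had an end within 1 kb of the end of a protein-coding gene that is no Zfp, and on average over the 6 libraries 64.9% ± 13.8 of them were marked (SD, n = 6 libraries). Of the other 168, 42.0% ± 12.0 were marked.

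Marked ends of Zfp genes were not among the strongest of their lists. The median rank percentile of the best gene-end interval was 50.8, 46.2 and 47.2 in LEF1 replicates 1 to 3 and 51.4, 56.6 and 57.9 in TCF1 replicates 1 to 3. For all protein-coding genes with a marked end the medians were 43.6, 39.6, 45.0, 43.5, 44.5 and 50.7. The Zfp median was the weaker in 6 of 6 libraries.

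Zfp windows with few CG dinucleotides were touched by an interval more often than those of protein-coding genes at large. With 0 to 4 CG the shares were 10.6% ± 3.71 of 11 Zfp windows, 9 of which were touched in no library, and 2.71% ± 0.834 of 5097 (SD, n = 6 libraries). With 5 to 9 CG in 300 bases, 47.2% ± 11.2 of 30 Zfp windows were touched by an interval (SD, n = 6 libraries), against 13.3% ± 3.90 of 2387 protein-coding windows, which include the Zfp ones. The Zfp share was the higher in each library, from 26.7% against 6.33% in TCF1 replicate 3 to 60.0% against 18.0% in LEF1 replicate 2. With 15 to 19 CG the shares were 53.8% ± 6.88 of 39 and 47.1% ± 9.55 of 1975, and with 25 or more 39.9% ± 16.4 of 23 and 45.0% ± 9.75 of 4277. Zfp windows held a median of 15 CG, with 16 at those touched in all 6 libraries and 16 at those touched in none. Among all protein-coding windows the same medians were 22 and 6. These bins were chosen after the lists had been seen, and no test was made.

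**Figure D5:**
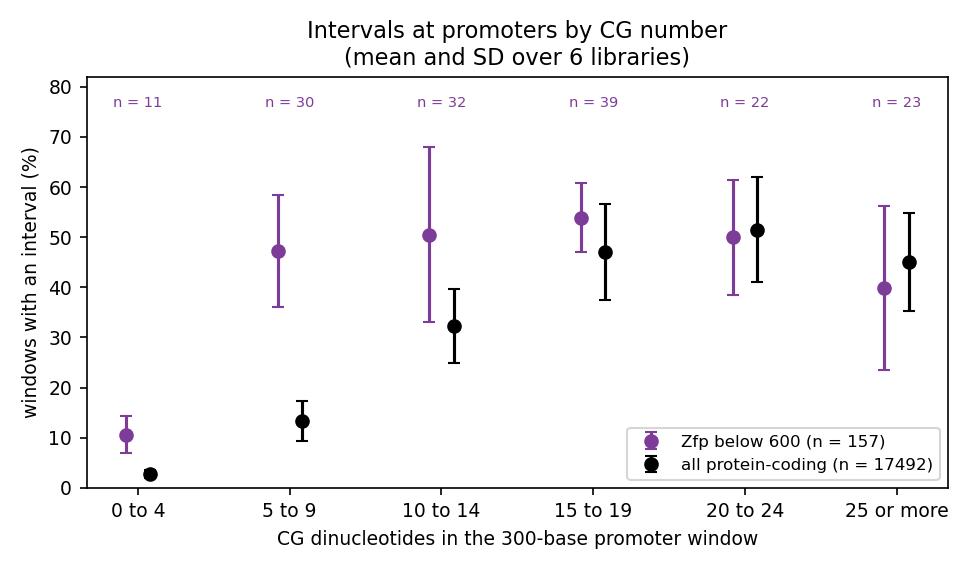
Percentage of 300-base promoter windows touched by an interval (y axis, mean and SD over 6 libraries) by the number of CG dinucleotides in the window (x axis), for 157 Zfp genes and 17492 protein-coding genes. From 5 to 24 CG the Zfp points lie between 47.2% and 53.8%, whereas those of all genes climb from 13.3% to 51.5%; with 0 to 4 CG both are low, at 10.6% and 2.71%.

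Clustered genes were then compared with single ones. A gene was clustered when another protein-coding Zfp gene of any whole number lay within 100 kb, which was so for 105 of the 196 and left 91 single. At gene ends the 2 groups did not differ beyond the spread between libraries: 44.6% ± 13.3 of clustered and 46.0% ± 11.2 of single genes were marked (SD, n = 6 libraries), a difference of -1.37 ± 3.12 percentage points, clustered minus single (exact sign-flip permutation test over 6 libraries, two-sided, p = 0.4375, adjusted over the 6 tests p = 0.6). By library it was 0.513, 0.806 and 1.39 points for LEF1 and -0.659, -3.74 and -6.52 for TCF1. The LEF1 libraries thus lay above 0 and the TCF1 libraries below, and the gap differed between the factors by 4.54 points (exact permutation test, two-sided, p = 0.1, the smallest possible; adjusted p = 0.3). With lists of equal size the factors differed by -0.171.

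The comparison at gene ends depended on how the end was taken and on which genes were kept. Single genes were ahead in 6 of 6 libraries with the 5′ end alone (-6.83 points), with a 2 kb window (-8.69) and with lists of equal size (-4.26), each with an exact sign-flip permutation p of 0.03125. The run with the 5′ end alone held only the 87 clustered and 70 single genes of known strand. Clustered genes were ahead by 3.16 points when genes with an end within 1 kb of another gene's end were left out. In that run 2 of 6 libraries went the other way (exact sign-flip permutation p = 0.15625). Such a neighbour was present at 20 of 91 single and 8 of 105 clustered genes.

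In the wider window clustered genes had an interval less often in all 6 libraries. The share was 61.0%, 74.3% and 56.2% in LEF1 replicates 1 to 3 and 68.6%, 60.0% and 28.6% in TCF1 replicates 1 to 3. Single genes had 74.7%, 82.4%, 69.2%, 79.1%, 73.6% and 52.7%. In TCF1 replicate 3 the clustered share lay below that of all protein-coding genes (34.2%). The difference was -13.9 ± 5.49 points (SD, n = 6; exact sign-flip permutation test, two-sided, p = 0.03125, the smallest that 6 libraries allow), but adjusted over the 6 tests the p was 0.1875. The 6 libraries share the same genes, so the test covers the spread between libraries and not that between genes. The difference was -6.28 points with 20 kb on each side (exact permutation p = 0.0625). It was -7.46 when every interval touching the end of another gene was left out, so its size depended on which intervals were counted. That step also removed intervals at an end shared with a neighbour. Intervals at the end of another gene and not at the gene's own end showed a difference of 0.183 points (exact sign-flip permutation p = 0.875).

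By kind of interval, the groups differed most for those away from gene ends. Intervals inside the gene and farther than 1 kb from any protein-coding gene end were found at 15.1% ± 4.28 of clustered and 24.4% ± 4.36 of single genes (SD, n = 6 libraries; difference -9.28 points, lower in 6 of 6 libraries, exact sign-flip permutation p = 0.03125, adjusted over 4 kinds of interval p = 0.0625). Intervals in the flanks and away from ends were found at 15.6% ± 6.39 and 21.6% ± 6.87 (difference -6.06 points, lower in 6 of 6 libraries, exact permutation p = 0.03125, adjusted p = 0.0625). Single genes were also longer, with a median of 21.3 kb against 15.2 kb, and 6.34 kb from the nearest end of a gene that is no Zfp against 32.6 kb. Among genes of 10 to 40 kb, a limit chosen after the lists had been seen, the gap in the wider window was -10.8 points. The part of neighbour distance in it was not tested.

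The gap in the wider window was not repeated in the Zfp genes numbered 600 and above. There 107 clustered and 64 single genes had an interval at 51.7% ± 12.5 and 52.1% ± 11.1 (SD, n = 6 libraries), a difference of -0.37 points with 4 of 6 libraries lower (exact permutation p = 0.625). The gap of the lower-numbered genes exceeded it by -13.5 ± 4.28 points, lower in 6 of 6 libraries (exact sign-flip permutation test, two-sided, p = 0.03125). This comparison was added after the gap had been seen.

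Many clusters held both marked and unmarked genes. The 105 clustered genes fell into 37 clusters, of which 26 held 2 or more of them. In 18 of the 37 some of the genes had a marked end in some library and some had none, in 11 every one had and in 8 none had. Clusters with 1 of the genes, which cannot hold both kinds, make up 5 of the 11 and 6 of the 8. The largest cluster (chromosome 7, 29768552 to 30169775) held 13 of the genes. Zfp84, Zfp27, Zfp566, Zfp260 and Zfp146 were marked in all 6 libraries, and Zfp30, Zfp568 and Zfp82 in none. Zfp568 encodes a repressor of a placental transcript of Igf2.

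A second cluster on the same chromosome (24081877 to 24316698) held 10 of the genes. Of these, 7 were marked in no library, where 59.2% of all protein-coding genes were. Zfp180 was marked in all 6, Zfp94 in 5 and Zfp93 in 3. In the cluster on chromosome 13 (67038594 to 67553152) none of 9 genes was marked in all 6 libraries, while Zfp456, Zfp429, Zfp58 and Zfp87 were marked in 5. Of all protein-coding genes, 18.6% were marked in all 6 libraries. Averaged over the libraries, 62.8%, 23.3% and 40.7% of the genes of these 3 clusters were marked, against 31.4% of all protein-coding genes.

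The clustered genes with the strongest ends were Zfp524, Zfp12, Zfp13, Zfp78, Zfp286 and Zfp444. Zfp13 (chromosome 17, interval 23598589 to 23599731) had fold enrichments of 50.7, 64.8 and 41.3 for LEF1 and 60.2, 46.3 and 27.4 for TCF1. Its wider window held 6, 6 and 3 LEF1 and 3, 2 and 1 TCF1 intervals, and here the factors touched at 3 without overlapping further. Zfp78 (chromosome 7, interval 6362225 to 6363372) had 46.1, 57.3 and 41.7 for LEF1 and 47.1, 39.9 and 24.6 for TCF1. Zfp444 was the weakest of the 6, with 14.5 to 29.9.

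The genes with the most intervals in the wider window were Zfp36, Zfp217, Zfp51, Zfp526, Zfp53 and Zfp281. Zfp36, the tristetraprolin gene, which limits cytokine mRNAs in T cells, is only 2.45 kb long (chromosome 7, 28376784 to 28379228). It held 8, 9 and 8 LEF1 and 9, 9 and 6 TCF1 intervals. The strongest lay beyond the 3′ end (28375143 to 28376227), with fold enrichments of 36.2, 60.5 and 31.3 for LEF1 and 35.3, 38.8 and 18.0 for TCF1. The interval at the 5′ end (28378568 to 28380487) was weaker in each library, at 6.69 to 15.4.

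Zfp217, a C2H2 regulator of transcription, held 7, 12 and 7 LEF1 and 9, 7 and 1 TCF1 intervals over 43.0 kb. Its annotated ends were unmarked in 5 of 6 libraries, and 4 to 6 of the intervals lay inside the gene in every library but TCF1 replicate 3, which had 1 there. Zfp281, which encodes a factor of GC-rich promoters, held 6, 7 and 5 LEF1 and 4, 4 and 3 TCF1 intervals. At its 5′ end the fold enrichments were 15.1, 19.3 and 13.5 for LEF1 and 10.1, 8.12 and 6.21 for TCF1. The factors did not overlap at Zfp281 in either measure. Zfp281 was named for its number of intervals, and how often other genes show such a separation was not counted. No test of the factors was made at this gene. An interval near its 3′ end (chromosome 1, 136629259 to 136629585) was present in the 3 LEF1 and in no TCF1 library, with fold enrichments of 5.40 to 8.06. The clustered neighbours Zfp51 and Zfp53 on chromosome 17 held 4 to 6 and 3 to 8 intervals, with the lowest number of each in TCF1 replicate 3. Zfp526, which has an end 382 bp from an end of Gsk3a, held 3 to 6.

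The genes of known function are described by list, with counts to be read against all protein-coding genes, of which LEF1 held 33.0%, TCF1 held 32.1% and 59.2% were marked in no library. Of 8 broad factors (Zfp143, Zfp148, Zfp217, Zfp263, Zfp281, Zfp384, Zfp410 and Zfp131), 6 were held by each factor at an end, and all 8 were marked in some library. They held a median of 1.58 intervals in the wider window, against 0.667 over all protein-coding genes. Zfp384 was marked in 5 libraries, missing TCF1 replicate 3, with fold enrichments of 5.3 to 9.99. Zfp263 was marked in all 6 libraries, at 7.31 to 13.5, and Zfp131 in 4, with 3.83 as the weakest. Zfp410, a regulator of the chromatin remodeller gene Chd4, was marked in LEF1 replicate 2 and TCF1 replicate 1, at 4.8 and 6.6.

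Of the 5 lymphocyte genes, which include Zfp36 and Zfp91 of the next list, LEF1 held 4 and TCF1 held 5, with a median of 3.5 intervals. Zfp335, which is needed for T cell maturation, had fold enrichments of 10.6, 17.2 and 8.1 for LEF1 and 10.6 and 8.2 for TCF1 replicates 1 and 2. Zfp318, which is needed for IgD on B cells, had a marked end in TCF1 replicates 1 and 2, at 5.3 and 7.4, and in none of the others. Zfp91 was marked in all 6 libraries, at 17.1 to 40.9. Zfp292 had an interval at an end in 4 libraries and 1 to 6 in the wider window of all 6.

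Of 8 genes of RNA, ubiquitin and mitosis proteins, 3 were held by each factor (Zfp36, Zfp91 and Zfp207), a share near the 33.0% and 32.1% of all protein-coding genes, and their median was 1.42 intervals. Zfp207, which encodes the spindle assembly protein BuGZ, was weak, with 3.9 to 9.8. Zfp106 and Zfp326 had a marked end in TCF1 replicate 1 alone (5.50 and 5.12) and Zfp346 in LEF1 replicate 2 alone (6.10); all 3 encode proteins that associate with RNA. Zfp598, a sensor of collided ribosomes, had no marked end but 1 interval in the wider window of 5 libraries. Zfp451, which encodes a SUMO ligase and spans 54.1 kb, had no interval in any library.

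None of 9 genes of neural and mesenchymal development was held by either factor at an end, and 1, Zfp365, was marked in any library (LEF1 replicate 2, fold enrichment 4.6), where 33.0% and 32.1% of protein-coding genes were held and 59.2% marked in no library. Their median was 0.333 intervals in the wider window. Zfp423, a regulator of fat and cerebellar precursors, had no interval over 300.2 kb, and Zfp462 had none over 139.1 kb. Zfp503 had none either. Zfp536, the longest of the 196 genes at 456 kb, had 1 interval in each library, and Zfp521 had 2 in 5 libraries, none at an end. Zfp516, a factor of brown fat, was the member with the most: away from its ends it held 3, 5 and 2 LEF1 and 3, 1 and 1 TCF1 intervals. With Zfp451, Zfp442 and Zfp568, Zfp423 and Zfp462 were the longest of the 41 genes with no interval.

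Among the 5 genes of imprinting, embryo and retroelement silencing, LEF1 held none at an end and TCF1 held 1, against 33.0% and 32.1% of all protein-coding genes. That one was Zfp445, which takes part in maintaining imprints (fold enrichment 7.6 in LEF1 replicate 2 and 8.1 and 7.0 in TCF1 replicates 1 and 2). Its end lies 33 bp from an end of Zkscan7. The start used for the promoter window of Zfp445 lies 20845 bp inside its 5′ end. An interval touched that window in all 6 libraries, those of LEF1 included. Zfp57, the other imprint regulator, was marked in LEF1 replicate 2 and TCF1 replicate 1, at 11.2 and 6.3, and its end lies 11 bp from an end of Mog.

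Most genes of the machinery that KRAB zinc finger proteins recruit had a marked end. Of 14 such genes found (of 15 listed), LEF1 held 10 and TCF1 held 12 at an end, against 33.0% and 32.1% of all protein-coding genes, and 7 were marked in all 6 libraries. Trim28, the corepressor gene, was among the 7, with Atf7ip, Cbx3, Cbx5, Morc2a, Morc3 and Mphosph8. Setdb1 was marked in 2 libraries. Cbx5, the gene of HP1 alpha, had the strongest end, with a mean rank percentile of 4.83.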

How the data were processed

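The data were CUT&RUN peak lists, 3 for LEF1 and 3 for TCF1; groups and replicate numbers come from the sample titles, and an input control, sorted through another gate, was left out. MACS3 3.0.3 and Bowtie2 2.4.4 with build GRCm38.p6 are named in the submitters' processing notes, beside Trim Galore 0.6.6, deepTools 3.5.1, FastQC 0.12.1 and Picard. Not given in the sources used here: peak-calling options, and the treatment of duplicates and of reads that map to several places. Peaks were called per library, since the deposited peak names carry the library. The deposited fold enrichment, a ratio, is the signal column of the narrowPeak format, the deposited −log10 q was used only to make stricter or equal lists, and the deposited score was not used. Lists differ in length, so comparisons were repeated with the 11423 intervals of highest −log10 q in each list.

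Gene positions came from the RefSeq table of the same build, which gives no exons, and strand and promoter sequences from a RefSeq promoter table with 157 of the 196 genes. Coordinates are 1-based. Python 3.11.15 with SciPy 1.17.1 was used. Differences between factors were tested with exact permutation tests over 20 assignments, and clustered against single genes with exact sign-flip tests over 6 libraries; p-values of the 6 tests were adjusted by Benjamini-Hochberg. The code was tested on simulated data, in which 100% of planted genes were recovered. Named genes are a fixed set of known function, the 10 best-ranked at their ends, the 6 best-ranked clustered, the 6 with the most intervals, the 5 longest with none, and the members of the 3 largest clusters; Zfp365, Zfp595, Zfp599 and genes of the machinery and marker lists were named besides, after their values were seen. The members, lists and rules were chosen with earlier results of these data known. Alternatives changed list length, threshold, windows, overlap, cluster distance, neighbours and libraries.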

Additional observations from a re-analysis of the deposited data

Results flagged for a closer look

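The gap in marked gene ends between clustered and single genes was above 0 in every LEF1 library (0.513, 0.806 and 1.39 percentage points) and below 0 in every TCF1 library (-0.659, -3.74 and -6.52). LEF1 minus TCF1 was 4.54 points. The test of this difference gave the smallest p that the design allows (exact permutation test, two-sided, p = 0.1). The gap was largest in TCF1 replicate 3, the shortest list, and with equal list sizes the difference was -0.171.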

How the results depend on the processing

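The wider-window gap between clustered and single genes (-13.9 points) was below 0 under every alternative run. It lost its raw threshold with 20 kb on each side (-6.28) and with any library left out (-15.0 to -11.8), where 5 libraries allow no p below 0.0625. The gene-end gap (-1.37) passed the raw threshold with equal list sizes (-4.26), the 5′ end alone (-6.83) and a 2 kb window (-8.69), and turned with a 500 bp window (0.244) and without genes near another gene's end (3.16); left-out libraries gave -1.92 to -0.337. LEF1 minus TCF1 turned with equal list sizes in the gene-end share (-1.19), the wider share (-2.55), intervals per gene (-0.0136) and the difference of the gap (-0.171). With equal lists among 5 libraries (22901 intervals, chosen after seeing the data) the first 3 were -8.08, -5.19 and -0.11. With 1 library left out they were -2.55 to 12.8, -0.68 to 16.2 and 0.135 to 0.546, and the difference of the gap 3.1 to 6.03; the negative values are those without TCF1 replicate 3. The cause was not tested. The replicate numbers did not pair the libraries: deviations of same-numbered libraries correlated at -0.0689, 0.179 and 0.35, and not every library correlated best with its own number. With the replicate block the differences were 6.46, 9.35, 0.384 and 4.54 (exact sign-flip p = 0.5, 0.5, 0.5 and 0.25), and no call changed. Read depth is not in the lists.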

Other observations

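Besides the TCF/LEF core, words of promoter factors were counted on both strands of the 300-base windows. The ETS word CCGGAAGT was found at 8 of 39 Zfp windows touched by an interval in all 6 libraries, at 7 of 57 touched in 1 to 5 and at 5 of 61 touched in none. Over all protein-coding windows its shares were 10.3% for all 6 libraries and 2.11% for none. The ZNF143 word ACTACAA was found at 8.92% of the 157 Zfp windows and at 3.82% of all. For Zfp genes numbered 600 and above it was found at 3.38% of 148 windows. By touching, in the same order, its counts were 4 of 39, 5 of 57 and 5 of 61. An NRF1 word was found at 4.46% of Zfp windows and 1.33% of all. Its counts by touching were 0 of 39, 4 of 57 and 3 of 61. Over all protein-coding windows the ZNF143 shares were 6.05% for all 6 libraries and 2.75% for none, and those of NRF1 2.29% and 0.648%. A YY1 word was found at 1.91% of Zfp windows and 0.972% of all. These are counts of letters, chosen after the lists had been seen, with no test.

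By chromosome, the share of Zfp genes with a marked end, averaged over the libraries, was 46.0% on chromosome 7, which holds 54 of the 196, 42.1% on chromosome 13 (21 genes) and 57.9% on chromosome 17 (19 genes). The same mean share over all protein-coding genes was 31.4%. On chromosomes 4, 6 and X, with 10, 9 and 6 genes, the shares were 25%, 27.8% and 19.4%. No gene was marked in all 6 libraries on these, nor on chromosomes 3, 10 and 15, with 1, 2 and 3 genes. Of all 196 genes 24.0% were marked in all 6 libraries, and of all protein-coding genes 18.6%.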
